A study of Mus musculus with 12 samples.

Results

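Intergenic long noncoding RNA (lncRNA) genes that lie away from coding genes were taken from the annotation deposited with the series. They are the genes with an identifier of n plus digits, all of biotype lncRNA, whose span lies more than 5000 bases from the span of every protein_coding gene on mouse build mm9, without a short stretch of chromosome 19 that the rule leaves out. The rule uses positions only. It found 7861 genes among the 36991 n-numbered genes and the 57683 genes of the polyA count table. 4 n-numbered genes on Y_random, which holds no coding gene to measure a gap from, were left out. The cells came from hearts of wild-type FVB/NJ mice, female and 12 weeks old. 3 libraries held polyadenylated RNA of cardiomyocytes taken directly after isolation (FVB-CM), and 3 held that of the nonmyocyte fraction after culture (FVB-fibro). Small RNA of both kinds of cells was sequenced in 3 libraries each. The protocol speaks of cells passaged 2 times that were mostly fibroblasts, whereas the cell type label says P1 culture, so a difference of cell type cannot be told apart from one of culture here. The labels name hearts but do not tie a library number to a heart, so the p-values measure the spread between these libraries.

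A lncRNA is a transcript with no long reading frame, and an intergenic one shares no bases with a protein-coding gene. Many are spliced and polyadenylated, most are less abundant than messenger RNAs, and many are made in few cell types. Some act on the chromatin or the promoters near them, some host microRNAs, and for most no function is known. In the heart, lncRNA genes are known beside genes for contractile proteins and cardiac transcription factors. The identifiers of these genes carry no common names in the files, so they are given here as n numbers, with mm9 coordinates and the nearest coding gene.

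The small RNA libraries give a second readout of some of these genes, because 46 annotated microRNA precursors lie inside the span of 53 members on the same strand. 32 of their 73 arms had enough counts to test, and RefSeq (GRCm38.p6) held the mature sequence of 29. A microRNA pairs with its targets mainly through its seed, bases 2 to 8 from the 5′ end, which is in capitals here. The first 3 sequences come from the imprinted stretch of chromosome 12 described below. The other 7 are the tested arms that share a seed with another tested arm from a member, and they are shown because, for each shared seed, 1 arm was called and another was not; the difference between such arms was not tested.
miR-541-5p: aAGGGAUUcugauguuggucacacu
miR-410-3p: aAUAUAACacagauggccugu
miR-377-3p: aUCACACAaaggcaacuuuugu
miR-181a-5p: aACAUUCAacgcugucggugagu
miR-181b-5p: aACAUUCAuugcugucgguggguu
miR-322-5p: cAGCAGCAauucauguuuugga
miR-15a-5p: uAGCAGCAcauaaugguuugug
miR-16-5p: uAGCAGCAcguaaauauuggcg
let-7i-5p: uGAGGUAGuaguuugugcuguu
let-7d-5p: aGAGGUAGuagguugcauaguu

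The labelled cell types were checked against marker lists. The summed level of 8 cardiomyocyte markers, such as Myh6 and Tnnt2, was 120600 to 159100 CPM (counts scaled to a total of 1000000 per library) in cardiomyocytes and 826 to 1109 CPM in nonmyocytes. The 8 fibroblast markers, such as Col1a1 and Pdgfra, summed to 265 to 408 CPM and to 11670 to 13620 CPM. Markers of other cells moved with the groups too. The 7 endothelial markers summed to 360 to 756 CPM in cardiomyocytes and 77.3 to 88.5 CPM in nonmyocytes. 5 of the 7 were called higher, and Emcn stood at 14.1 ± 8.1 CPM against 23.7 ± 4.7 CPM. Pecam1 was at or near 0 in both groups, at 0.084 ± 0.078 CPM against 0 CPM, and was not tested. The 5 red blood cell markers summed to 12.7 to 605 CPM against 1.63 to 3.96 CPM, with 1 at 0 in nonmyocytes, and the 5 of smooth muscle and pericytes to 333 to 737 CPM against 239 to 300 CPM. The latter list split, with 3 members higher and 2 lower: Abcc9 stood at 337 ± 135 CPM against 2.10 ± 1.03 CPM, and Myh11 at 22.1 ± 14.5 CPM against 163 ± 19 CPM. The 6 macrophage and leukocyte markers summed to 19.6 to 27.7 CPM against 62.2 to 76.7 CPM, the 5 epicardial markers to 9.43 to 17.6 CPM against 27.1 to 34.2 CPM, and the 3 measured proliferation markers to 6.39 to 7.47 CPM against 94.5 to 109 CPM. Of the 3 tested macrophage and leukocyte markers 2 were called lower, and of the 5 epicardial markers 3 were. No marker of these lists was called higher, but some means leaned that way. Cd14 had a mean of 6.235 CPM against 4.86 CPM, and Emr1 and Fcgr1 had the same direction at low levels. Wt1 had a mean of 4.83 CPM against 2.824 CPM and Msln of 3.012 CPM against 2.107 CPM. The part of these other cells in the results below was not tested. The polyA libraries held 5956831 to 26851830 counts, of which mitochondrial genes took 3.06% to 6.12% in cardiomyocytes and 0.236% to 0.405% in nonmyocytes.

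Most members had no count in any library. 2275 of the 7861 members (28.94%) had at least 1 count over the 6 libraries, 986 had 10 or more, and 307 passed the filter on low counts and were tested. The corresponding shares of genes with any count were 51.87% of the other n-numbered genes and 79.41% of protein_coding genes. Cardiomyocyte libraries 1, 2 and 3 had counts for 590, 1213 and 1335 members, and nonmyocyte libraries 1, 2 and 3 for 1064, 963 and 1002. At an equal total of 5956831 counts, the expected numbers were 590, 819 and 894 in cardiomyocytes and 936, 904 and 898 in nonmyocytes. Cardiomyocyte libraries 2 and 3 thus fell below the nonmyocyte libraries, library 3 only just. By level in CPM, which use TMM-scaled totals, cardiomyocytes stood above. At 1 CPM or more there were 343, 267 and 300 members in cardiomyocytes and 246, 260 and 243 in nonmyocytes. At 10 CPM or more there were 49, 55 and 54 against 37, 44 and 42. The tested members were also low per length: the median over tested members of the level in the higher group was 2.63 CPM per kilobase of exon, beside 8.02 for tested coding genes and 1.35 for the other tested n-numbered genes.

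One gene held most of the counts of all members in cardiomyocytes. n265358, 440 bases on chromosome 11 (108872993 to 108873432, minus strand), lies 60895 bases from Axin2, which codes for a scaffold protein of the Wnt pathway. It stood at 9079, 6875 and 7916 CPM in cardiomyocytes and at 1799, 2070 and 1480 CPM in nonmyocytes. The groups did not overlap, and n265358 was 2.16 ± 0.20 (SE) higher on the log2 scale in cardiomyocytes (edgeR adjusted p = 5.96e-07). It made up 63.77% to 69.22% of all member counts in cardiomyocyte libraries and 32.65% to 39.09% in nonmyocyte libraries. Members together took 1.137%, 0.7751% and 0.9172% of the counts of cardiomyocyte libraries 1, 2 and 3, and 0.6055%, 0.6742% and 0.57% of those of nonmyocyte libraries 1, 2 and 3. Without n265358 the order of these shares turned, with 0.2808% to 0.3499% in cardiomyocytes and 0.3822% to 0.4107% in nonmyocytes. These are shares of unscaled totals, whereas CPM use TMM-scaled totals. The TMM factors were 0.721 to 0.870 in cardiomyocytes and 1.25 to 1.28 in nonmyocytes, so the order does not turn on the CPM scale.

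Of the 307 tested members, 99 were higher in cardiomyocytes (32.25%), 85 were lower (27.69%), and 123 were not called. Over all 14734 tested genes, 31.6% were higher and 32.1% were lower (63.7% together), so the shares called lie near the background. 98 members (31.92%) were called and at least 2-fold higher and 81 (26.38%) at least 2-fold lower, beside 26.1% and 26.3% of all tested genes, so the lower share was again near the background. The shares at 16-fold lay further from it. 45 members were at least 16-fold higher (14.66%) and 40 at least 16-fold lower (13.03%), beside 7.13% and 6.8% of all tested genes. The other tested n-numbered genes were at 11.23% and 5.37%. Tested members had a median level of 2.72 CPM, beside 14.39 CPM over all tested genes. A gene at a low level can pass the filter only through the group where it is high. The part of this in the 16-fold shares was not tested. The median absolute log2 fold change was 1.76 over tested members, 1.40 over the other tested n-numbered genes, 1.19 over coding genes and 1.23 over all tested genes. The 18 members that were at 0 throughout one group had lower bounds of at least 4.11 on the log2 scale. That is over the 16-fold cut and over the median, so setting these members at their bounds could not change either. The 3 libraries of one group all lay above the 3 of the other for 203 members, 104 with cardiomyocytes above and 99 with nonmyocytes above, where the background was 70.4% of all tested genes, 34.1% with cardiomyocytes above and 36.3% with nonmyocytes above. Fewer cells with an RNA and less of it per cell cannot be told apart in such libraries. With library totals as the scale, which lowered the median log2 fold change of all genes from -0.02 to -0.70, the split was 74 higher and 114 lower in place of 99 and 85. Without the filter on low counts, which lets all 2275 members with a count be tested, 209 were higher and 125 lower. The shares called over all 33437 genes tested in that setting are not given here, so this split has no background. Cardiomyocyte libraries 2 and 3 held 26851830 and 26195634 counts, and the deepest nonmyocyte library held 10792544. The part of this difference of depth in the split was not tested.

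**Figure D1:**
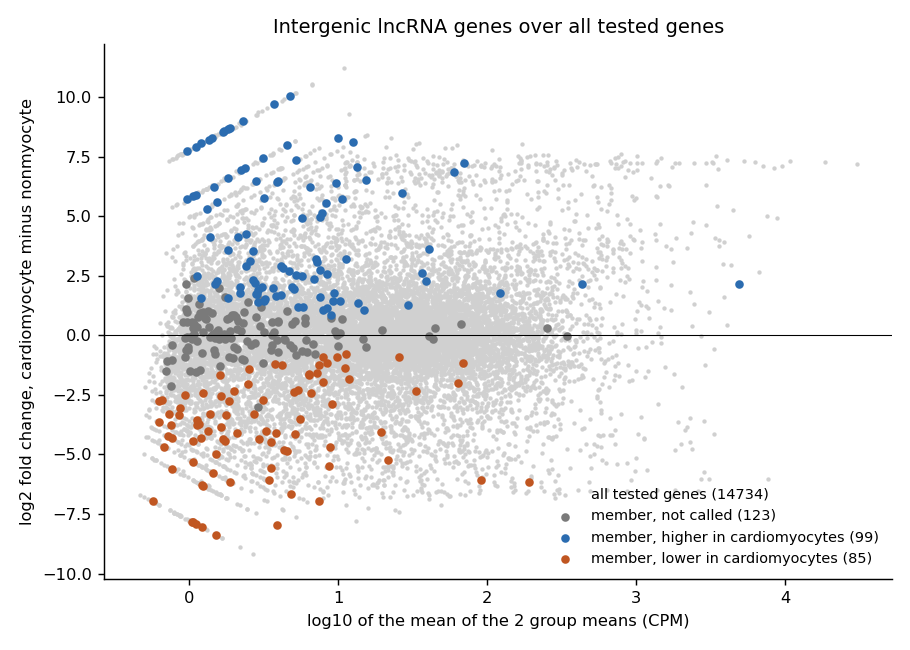
Log2 fold change (cardiomyocyte minus nonmyocyte) against the log10 of the mean CPM of both groups, with 1 point per tested gene: all 14734 genes in light grey, the 99 higher members in blue, the 85 lower members in orange and the 123 members not called in dark grey. Most members lie at the low end of the axis of levels, and the straight lines of points at the left edge are genes at or near 0 counts in one group, whose fitted fold changes are not bounds.

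The called members named here by level or by fold change were taken only from called members whose groups do not overlap. Their calls and the lack of overlap follow from that choice. Among the more abundant members that rose in cardiomyocytes, the clearest contrasts were n416873 and n281399. n416873, a gene of 2 exons on chromosome 1 (157367302 to 157374238, minus strand) between coding genes, stood at 134, 135 and 147 CPM in cardiomyocytes and at 1.05, 1.16 and 0.543 CPM in nonmyocytes. Its log2 fold change was 7.25 ± 0.26 (edgeR adjusted p = 1.64e-10). Acbd6, which codes for an acyl-CoA binding protein and lies 31011 bases away, stood at 46.1 ± 4.4 CPM (SD, n = 3) and 35.4 ± 6.9 CPM and was not called. n281399, 2 exons on chromosome 6 (86463888 to 86466267, minus strand), stood at 115, 129 and 111 CPM in cardiomyocytes and at 1.19, 0.773 and 1.01 CPM in nonmyocytes, with a log2 fold change of 6.87 ± 0.24 (adjusted p = 1.33e-10). It lies 8218 bases downstream of its nearest coding gene, the RNA-binding protein gene Pcbp1, and on its strand. Pcbp1 was at 200 ± 22 CPM and 173 ± 10 CPM and was not called either. So both members had over 100 CPM in each cardiomyocyte library beside coding genes without a called difference.

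The other abundant members that rose kept more of their level in nonmyocytes. n265835 on chromosome 3 (5860338 to 5860826) stood at 966, 546 and 613 CPM against 192, 160 and 130 CPM, 4.41-fold between the means. n424047 on chromosome 17 (39983297 to 39985004) stood at 308, 145 and 118 CPM against 46.1, 58.9 and 60.1 CPM. 99.41% of its exon bases are shared with other genes, so its counts are uncertain. n293821, 5960 bases from the muscle kelch-repeat gene Kbtbd5, stood at 77.1, 77.6 and 70.7 CPM against 7.76, 4.93 and 5.74 CPM, and 61.23% of its exon bases are shared. Kbtbd5 itself stood at 58.2 ± 16.8 CPM against 0.332 ± 0.048 CPM. n281278 on chromosome 4 (114285424 to 114287701), 291185 bases from Foxd2, stood at 75.4, 58.2 and 58.8 CPM against 14.3, 15.0 and 10.8 CPM. n297454, 5603 bases downstream of the kinase gene Hipk2 and on its strand, stood at 77.5, 62.5 and 48.5 CPM against 11.9, 7.34 and 11.6 CPM. The groups overlapped for none of the 5 lncRNA genes, as the choice required. Their log2 fold changes were 2.14 ± 0.23, 1.79 ± 0.30, 3.60 ± 0.22, 2.26 ± 0.21 and 2.60 ± 0.25 in the order given, with edgeR adjusted p of 0.000183 or less. Over the 37 higher members at 10 CPM or more in cardiomyocytes, the nonmyocyte level was a median of 12.08% of the cardiomyocyte level. The same share was 0.676% for the 8 cardiomyocyte markers, which were picked as typical of these cells, and 6 of the 37 members were under 1%. The share over all higher genes is not given here, so these values do not set members apart from other higher genes.

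Members that rose from 0 counts in all nonmyocyte libraries were low in cardiomyocytes as well. n295544, 2 exons on chromosome 17 (32044823 to 32045974), stood at 8.33, 10.8 and 9.55 CPM and was at least 121.6-fold higher, with a floor of 3 counts over the nonmyocyte group. n270854 on chromosome 4, 222397 bases from the transcription factor gene Nfib, stood at 5.23, 8.55 and 8.63 CPM and was at least 100.2-fold higher. n266878 (at least 62.0-fold), n269772 (48.47), n271090 (48.20) and n268122 (47.65) stood between 1.94 and 5.67 CPM in every cardiomyocyte library. n270009, 10608 bases upstream of Cd36, the fatty acid transporter gene, stood at 2.91, 4.04 and 3.20 CPM and was at least 43.05-fold higher, beside Cd36 itself at 504 ± 120 CPM against 3.55 ± 0.83 CPM. Endothelial cells also express Cd36, and 5 of the 7 endothelial markers were higher in cardiomyocyte libraries, as given above. n297559 on chromosome 3, 9406 bases from the lipid transfer gene Mttp, stood at 22.9, 15.3 and 22.0 CPM and had 2 counts in all over the nonmyocyte libraries. Its ratio of 352.1 has a 95% counting interval of 97.19 to 2912. Intervals and floors cover counting error only, since reads without molecular identifiers are not independent molecules. All 8 were called, as the choice required (edgeR adjusted p at most 6.05e-05).

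In the other direction, n413827 had the highest level in nonmyocytes. This gene of 1 exon on chromosome 10 (61533769 to 61535319, plus strand) stood at 368, 371 and 392 CPM in nonmyocytes and at 3.49, 5.49 and 6.01 CPM in cardiomyocytes. Its log2 fold change was -6.17 ± 0.22 (edgeR adjusted p = 1.39e-10), a level 75.5-fold higher in nonmyocytes. The nearest coding gene, 2010107G23Rik, is 35083 bases away and was not called, at 4.93 ± 2.46 CPM in cardiomyocytes and 8.79 ± 2.29 CPM in nonmyocytes. n296214, 3 exons on chromosome 16 (65828857 to 65862140, plus strand), stood at 203, 163 and 176 CPM in nonmyocytes and at 1.94, 2.95 and 2.72 CPM in cardiomyocytes, with a log2 fold change of -6.08 ± 0.22 (adjusted p = 1.67e-10). 57.82% of its exon bases are shared with other genes, so its counts are uncertain. Both genes lay under 7 CPM in every cardiomyocyte library and over 160 CPM in every nonmyocyte library.

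6 further members with high levels in nonmyocytes fell by less in cardiomyocytes or started lower. n293521, beside n296214, stood at 38.1, 49.1 and 39.4 CPM in nonmyocytes and 1.55, 0.829 and 1.21 CPM in cardiomyocytes. n419655 on chromosome 2 (40412523 to 40412802), 37965 bases from the lipoprotein receptor gene Lrp1b, stood at 35.8, 40.4 and 35.0 CPM against 0.969, 2.80 and 2.28 CPM. n286216, 8330 bases downstream of Lpp, a focal adhesion gene, and on its strand, stood at 100.2, 102 and 105 CPM against 33.9, 21.0 and 22.8 CPM. n344324 on chromosome 1 (137128585 to 137129845) stood at 59.0, 62.8 and 44.4 CPM against 11.2, 11.3 and 9.89 CPM. n264684 on chromosome 13 (98521066 to 98530918) stood at 95.8, 101 and 88.3 CPM against 38.4, 47.6 and 42.2 CPM. n296129 on chromosome 19 (3205606 to 3206258) stood at 37.0, 30.3 and 34.1 CPM against 15.5, 22.7 and 15.1 CPM. The groups overlapped for none of the 6, as the choice required. Their log2 fold changes ran from -5.23 ± 0.30 in n293521 to -0.92 ± 0.23 in n296129 (edgeR adjusted p at most 0.00321). Tested against a 2-fold change, n264684 (adjusted p = 0.149) and n296129 (adjusted p = 0.604) were no longer called.

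The steepest falls were in members at or near 0 in cardiomyocytes. n285633 on chromosome 7, 6821 bases from Fah, an enzyme gene of tyrosine breakdown, stood at 12.7, 15.0 and 16.5 CPM in nonmyocytes and at 0, 0.0518 and 0.194 CPM in cardiomyocytes (log2 fold change -6.96 ± 0.54). n290054, the third gene beside n296214, stood at 7.46, 10.4 and 5.43 CPM and had a single count in the cardiomyocyte libraries, for a ratio of 342.2 with a 95% counting interval of 60.92 to 13570. 47.72% of the exon bases of n290054 are shared. n269365 on chromosome 12 stood at 2.61, 3.67 and 2.79 CPM and was at least 44.73-fold lower in cardiomyocytes, where it had no count. n279348 (at least 35.70-fold lower), n266283 (34.06), n264532 (30.78), n267504 (30.37) and n281016 (17.24) were also at 0 in every cardiomyocyte library and stood between 1.09 and 3.38 CPM in nonmyocytes. n264532, with 47.15% of its exon bases shared, lies 8895 bases from Mtap, an enzyme gene of the methionine salvage pathway that was itself lower in cardiomyocytes, at 19.01 ± 4.18 CPM against 71.1 ± 5.0 CPM. All 8 were called, as the choice required (edgeR adjusted p at most 0.000651).

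**Figure D2:**
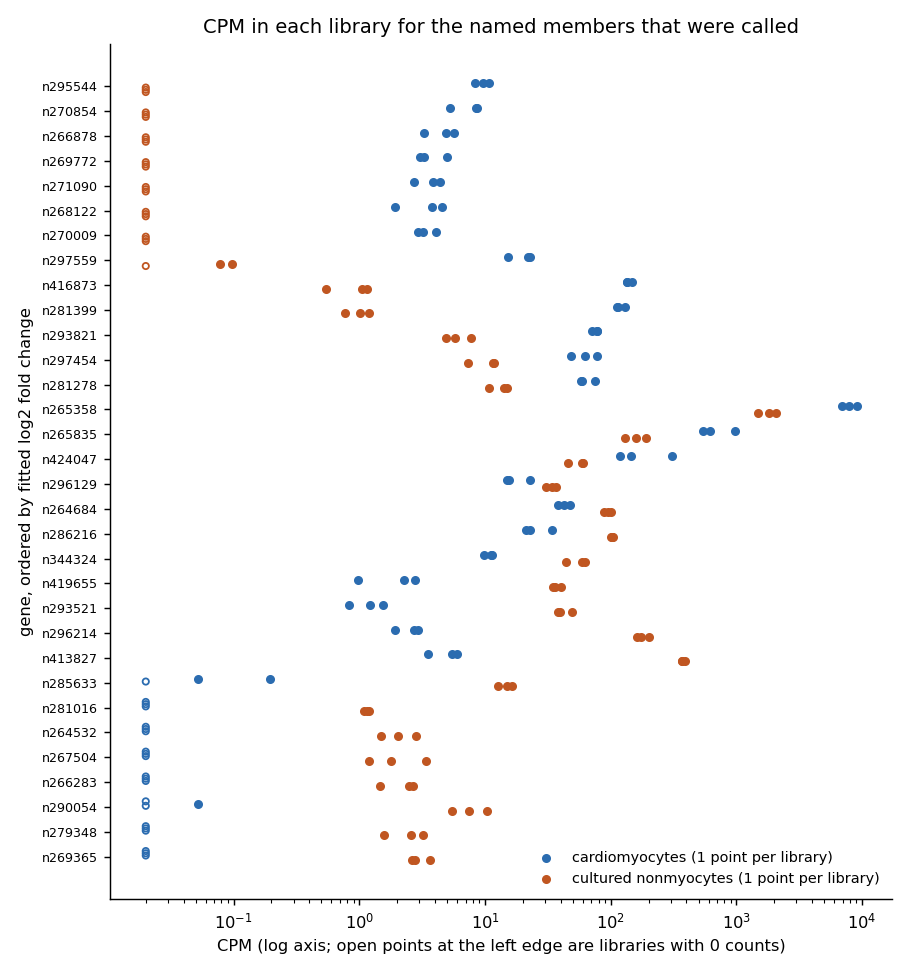
CPM in each library (log axis, 1 point per library, 3 per group) for the 32 called members named by level or by fold change, with cardiomyocytes in blue and cultured nonmyocytes in orange, ordered by fitted log2 fold change. Open points at the left edge are libraries with 0 counts. The groups do not overlap for any gene shown because only such genes were chosen. The genes at both ends of the order are those at or near 0 in one group.

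The 5 most abundant members that were tested and not called follow. n413706 on chromosome 5 stood at 230.2, 443 and 333 CPM in cardiomyocytes and 267, 379 and 398 CPM in nonmyocytes, a log2 fold change of -0.05 ± 0.23 (edgeR adjusted p = 0.864). It lies 32202 bases from Steap1, a metalloreductase gene, which fell by 7.13 on the log2 scale. n413870 on chromosome 14 stood at 41.5, 45.4 and 35.2 CPM against 40.5, 43.4 and 52.4 CPM (-0.16 ± 0.19, adjusted p = 0.475), while Bmp4, a signalling ligand gene 298562 bases away, stood at 3.89 ± 2.0 CPM against 198 ± 13 CPM. n420419, 20071 bases downstream of the mitochondrial protein gene Chchd7 and on its strand, stood at 182, 401 and 254 CPM against 233, 275 and 178 CPM (0.29 ± 0.26, edgeR adjusted p = 0.339). n295130, 5495 bases downstream of the transcription factor gene Tead1 and on its strand, stood at 86.8, 73.2 and 72.4 CPM against 68.0, 59.3 and 42.2 CPM (0.45 ± 0.20, edgeR adjusted p = 0.0616). n295826 on chromosome 13 stood at 39.5, 62.9 and 45.2 CPM against 39.1, 38.4 and 41.3 CPM (0.32 ± 0.20, adjusted p = 0.182). The groups overlapped for n413706, n413870, n420419 and n295826. n295130 did not overlap and missed the threshold. Single libraries decided some of these calls: without cardiomyocyte library 1, n420419 (0.55, adjusted p = 0.0160) and n295826 (0.48, adjusted p = 0.0229) were called higher, and without nonmyocyte library 1, n295130 was (0.68, adjusted p = 0.0183). With all libraries kept, n295130 was also called by limma voom (adjusted p = 0.0466), without the filter on low counts (edgeR adjusted p = 0.0286) and without mitochondrial genes (edgeR adjusted p = 0.0410). With library totals as the scale, n413706 (-0.75, adjusted p = 0.00523) and n413870 (-0.84, adjusted p = 0.00121) were called lower, beside the shift of all genes given above.

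Members within 10000 bases of each other were joined into loci, which gave 5367 loci, 4128 of them with a single member. 25 loci held at least 2 tested members, 64 members in all. In 11 of the 25, at least 2 members were called, and in each of the 11 the called members moved in 1 direction. Neighbouring members can be pieces of one transcript or share exon bases, so they are not independent. The 5 loci described next are those with 3 or more tested members in which every one was called, so they were chosen after their values were seen. Upstream of Chrm2, the gene of the muscarinic receptor that slows the heart, 4 members on chromosome 6 (36218513 to 36340191) rose. n264647 stood at 9.69, 10.8 and 10.8 CPM in cardiomyocytes and at 0, 0.0966 and 0.0776 CPM in nonmyocytes, and n279488 at 5.23, 11.1 and 7.13 CPM against 0.149, 0 and 0.0776 CPM. The ratios were 195.4 (95% counting interval 53.79 to 1618) for n264647 and 105.3 (35.77 to 513.0) for n279488, and 42.65% and 29.55% of their exon bases are shared. n413263 and n413291 had the same direction at 2.52 to 8.60 CPM in cardiomyocytes, but 65.07% and 89.96% of their exon bases are shared. Chrm2 itself, 133018 bases or more from each of them, stood at 48.0 ± 16.5 CPM against 0.331 ± 0.313 CPM.

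In the locus on chromosome 14 (51508264 to 51517154), on the strand of Osgep, a gene of transfer RNA modification, 3 members without shared bases rose. n278505 stood at 11.2, 39.6 and 40.9 CPM in cardiomyocytes and at 0.448, 0.193 and 0.310 CPM in nonmyocytes. n295571 stood at 20.9, 16.3 and 20.2 CPM against 0.149, 0 and 0.466 CPM, and n286508 at 5.62, 6.58 and 10.9 CPM against 0.0746, 0 and 0.155 CPM. The log2 fold changes were 6.54 ± 0.57 for n278505 and 6.41 ± 0.55 for n295571, the ratio for n286508 was 103.2 with a 95% counting interval of 35.03 to 502.5, and the log2 fold change of Osgep was 1.69 ± 0.25. Cardiomyocyte library 1 was the lowest of its group for n278505 and the highest for n295571. The locus on chromosome 16 (65828857 to 65866605) held n296214, n293521 and n290054, which all fell (n293521 shares no exon bases), on the plus strand and 265885 bases or more from the nearest coding gene, Chmp2b. Chmp2b fell by 0.75 ± 0.20 on the log2 scale. On chromosome 2 (128137419 to 128255085), n265291, n273717 and n413592 fell, with n265291 at 0.388, 0.363 and 0.776 CPM in cardiomyocytes and 8.81, 10.1 and 10.3 CPM in nonmyocytes. Their nearest coding genes, the apoptosis gene Bcl2l11 and the cell cycle gene Anapc1, were not called. On chromosome 8 (4087218 to 4089901), n268692, n270392 and n413386 fell by 1.65, 1.57 and 1.17 on the log2 scale, near Cd209f, which was not tested.

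Members and their nearest coding genes more often moved in one direction than in opposite ones. For 123 of the 184 called members the nearest coding gene was tested. It was called in the same direction for 79 (64.23%), in the opposite direction for 13 (10.57%) and not called for 31. For comparison, 31.64% of tested coding genes were called higher and 35.07% lower. Of 66 higher members, 45 had a higher neighbour and 5 a lower one. Of 57 lower members, 34 had a lower neighbour and 8 a higher one. Over the 207 tested pairs, which share 174 neighbours and the same libraries, Pearson's r between the log2 fold changes was 0.516, given as a description. By distance, from over 5000 bases to over 200000, the share in the same direction was 64.29%, 71.43%, 51.85%, 62.5% and 88.89%, the last of 9 members, and r was 0.607 in the nearest bin and 0.428 in the farthest, so neither value followed the distance in one direction over the bins.

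The pairs that follow were chosen after their values were seen, as those with the largest changes of the neighbour or with a neighbour known in the heart. n265935, 3 exons lying 6958 bases upstream of Myh7, the slow myosin heavy chain gene, stood at 25.4, 24.3 and 30.3 CPM in cardiomyocytes and at 0.224, 0.0966 and 0.233 CPM in nonmyocytes. Myh7 stood at 2943 ± 198 CPM against 16.9 ± 1.6 CPM, and the log2 fold changes were 7.07 ± 0.40 for the lncRNA gene and 7.44 ± 0.21 for Myh7. n279887, 7672 bases upstream of Myocd, a coactivator gene of heart and smooth muscle, stood at 14.3, 13.3 and 16.2 CPM against 0.448, 0.387 and 0.543 CPM, beside Myocd at 136 ± 29 CPM against 2.23 ± 0.31 CPM. n269757, 18731 bases from Trdn, the gene of the calcium release protein triadin, stood at 5.04, 4.56 and 4.56 CPM against 0, 0.0966 and 0 CPM. Trdn stood at 239 ± 40 CPM against 1.39 ± 0.29 CPM. n287484 and n264511, both upstream of Fhl2, a LIM domain gene of cardiac muscle, rose too: n287484 had a log2 fold change of 4.93 ± 0.52, beside 3.90 ± 0.22 for Fhl2, and n264511 a ratio of 161.6 with a 95% counting interval of 28.68 to 6416. Among lower pairs, n342977 stood at 0, 0.207 and 0.485 CPM against 9.93, 11.1 and 4.19 CPM (-4.80 ± 0.65), and Cdkn1a, a cell cycle inhibitor gene 12017 bases away, had a log2 fold change of -3.97 ± 0.41. n265086, 6018 bases from the homeobox gene Emx2, stood at 2.24, 2.51 and 2.56 CPM in nonmyocytes and had 1 count in cardiomyocytes, with a level 109.6-fold lower (95% counting interval 19.17 to 4376). n413801, 29627 bases from the growth factor gene Igf1, had 3 counts in cardiomyocytes and a level 21.34-fold lower (6.909 to 106.8). The log2 fold changes were -6.82 ± 0.50 for Emx2 and -3.27 ± 0.29 for Igf1. Each of these 5 higher and 3 lower members had libraries that did not overlap between the groups.

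Pairs with opposite directions were fewer. n276047 and n196423, which overlap on chromosome 4 and so are not independent, had log2 fold changes of -5.499 ± 0.394 and -4.085 ± 0.498, whereas Gpr157, 16365 and 15567 bases away, rose by 5.69 ± 0.28. n276047 stood at 0.194, 0.414 and 0.388 CPM in cardiomyocytes and at 18.5, 15.5 and 17.3 CPM in nonmyocytes. n291083, 7916 bases downstream of Hand2, a transcription factor gene of heart development, and on its strand, stood at 0, 0.673 and 0.097 CPM against 3.36, 3.67 and 2.79 CPM (-3.36 ± 0.79, edgeR adjusted p = 0.00228). Hand2 stood at 311 ± 120 CPM against 119 ± 11 CPM, a log2 fold change of 1.38 ± 0.24.

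**Figure D3:**
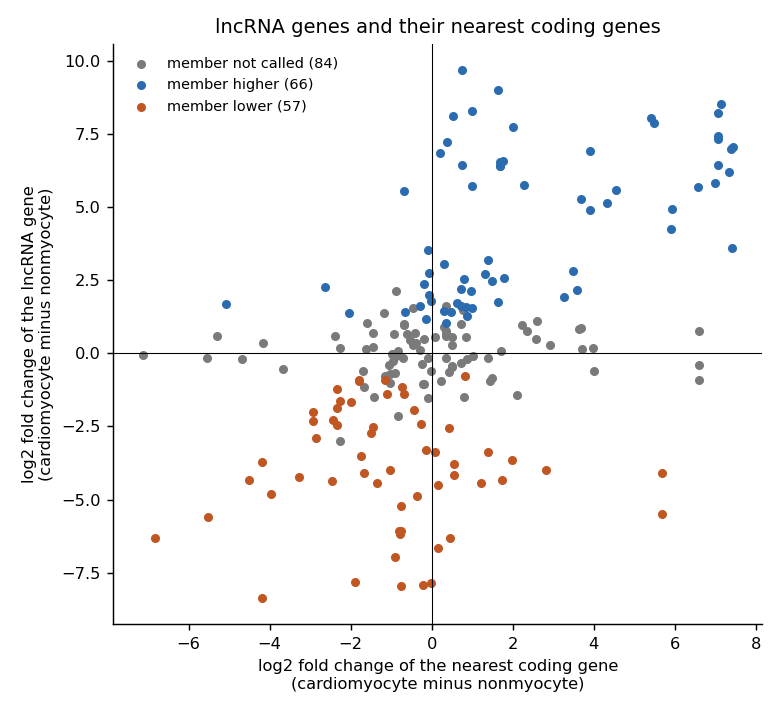
Log2 fold change of each tested member (cardiomyocyte minus nonmyocyte) against that of its nearest coding gene, for the 207 pairs in which both were tested, with 66 higher members in blue, 57 lower members in orange and 84 members not called in grey. More coloured points lie in the quadrants of equal sign than in those of opposite sign; members that share a neighbour form vertical columns.

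Structure and position were described beside the calls, without a test. The gap to the nearest coding gene ran from 5004 to 2146735 bases with a median of 47655, and it was 23037 over the 307 tested members. 8.144% of members at over 5000 to 10000 bases were tested, and 1.547% of those at over 200000 bases. The median absolute log2 fold change was 1.44 in the first of these and 2.83 in the second, where 9 of 24 tested members were higher and 8 lower. At the threshold itself, n278826 and n273248 lay just inside at 5091 and 5103 bases with log2 fold changes of 1.04 and 0.71, and n291249 and n279029 just outside at 4925 and 4878 bases with 1.10 and -3.37. Genes of 1 exon made up 43.12% of members and 51.79% of tested members. Of the 79 tested members with 3 or more exons, 25 were higher and 33 lower (median absolute log2 fold change 2.75), and of the 159 with 1 exon, 50 were higher and 36 lower (1.54). 224 members overlap an Ensembl gene of a class other than protein_coding, 9 of them tested.

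Whether a member had any count varied with how many of its exon bases lie in another gene. Of the 5302 members that share none, 32.2% had a count. Of the 1101 that share more than 95%, 14 (1.272%) had a count and 1, n424047, was tested. Of 606 coding genes that share more than 95%, 10.89% had a count. The sources used here do not state how reads in shared bases were counted, so a 0 in such a row does not show that the RNA is absent. This touches well-known genes. 100 members share exon bases on the same strand with 28 named Ensembl noncoding genes, among them 29 in Meg3, 10 in Xist and 4 in H19. Only 7 of the 100 had any count, and the Ensembl genes themselves were at 0 for 22 of the 28, Xist included, although the labels give female mice. The exception was n271105 in Airn, the imprinted antisense transcript of the Igf2r locus. It had 516 counts in all and stood at 21.1, 4.14 and 9.31 CPM in cardiomyocytes and at 4.25, 2.996 and 3.65 CPM in nonmyocytes. Its log2 fold change was 1.61 ± 0.51 (edgeR adjusted p = 0.0137), and the cardiomyocyte library at 4.14 CPM lay below the highest nonmyocyte library.

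**Figure D4:**
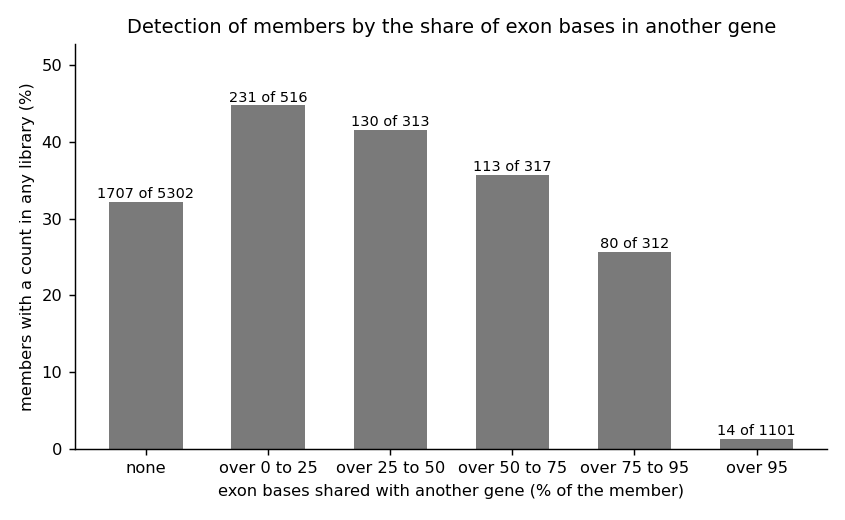
Percentage of members with a count in any of the 6 polyA libraries, by the percentage of their exon bases that lie in another gene, with the number of members above each bar. The bars stand at 32.2% with no shared bases, 44.77% at over 0 to 25% and 1.272% at over 95%.

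The small RNA libraries were then compared for the microRNAs inside members. Of the 32 tested arms, 4 were higher in cardiomyocytes, where the background was 19% of the 343 tested arms, and 15 were lower, where it was 33.8%. Only 13 of the 53 members that hold a precursor had any polyA count and 1 was tested. A polyadenylated library does not catch a precursor that has been cut. Some of these members, such as n413412 and n344242, share 100% of their exon bases with other genes, and such members rarely had a count, as given above. The part of either in the missing polyA counts was not tested. The small RNA totals were 83170 to 6311625 counts per library. In these libraries 3 counts correspond to 0.928 to 20.4 CPM, so small differences were not detectable in the shallow ones. Reads of a mature sequence made from several genes cannot be assigned to one of them.

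The imprinted stretch of chromosome 12 between 110779205 and 110987667 held 56 members in 3 loci. Its genes are expressed from one parental copy, among them Meg3, Rtl1 on the opposite strand and a large group of microRNAs. All 13 of its tested arms were lower in cardiomyocytes, with fitted log2 fold changes from -7.40 to -4.79. Together the 26 arms took 0.00267%, 0.00549% and 0.00338% of the counts in cardiomyocyte libraries and 1.19%, 1.64% and 2.03% in nonmyocyte libraries. miR-541-5p stood at 20.1, 72.1 and 46.7 CPM in cardiomyocytes and at 5356, 6995 and 9780 CPM in nonmyocytes (-7.27 ± 0.68, edgeR adjusted p = 0.000522). miR-410-3p stood at 0, 10.5 and 8.35 CPM against 1372, 1056 and 869 CPM (-7.19 ± 0.87), and miR-377-3p at 0, 0 and 0.928 CPM against 69.1, 59.4 and 183 CPM. No library of one group reached the other for these 3 arms.

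The members of the same stretch had few polyA counts, 8 over the cardiomyocyte libraries and 298 over the nonmyocyte libraries. 41 of the 56 share more than 95% of their exon bases, and 14 had any count. The 2 that were tested were both lower: n269365, given above, lies within the span of Meg3 without sharing its exons, and n286071, 37393 bases upstream of Rtl1, stood at 0.194, 0 and 0.291 CPM in cardiomyocytes and 2.24, 1.45 and 2.79 CPM in nonmyocytes (-3.73 ± 0.90, edgeR adjusted p = 0.00270). n291019, which holds the precursor of miR-377, had 0 counts in cardiomyocytes and 13, 12 and 8 in nonmyocytes and was not tested. Rtl1, the coding gene of the stretch, was lower too, at 0.114 ± 0.073 CPM against 1.85 ± 0.51 CPM (-4.19 ± 0.82).

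Outside chromosome 12, 4 of 19 tested arms were higher and 2 lower. miR-181a-5p, whose precursor Mir181a-1 lies in n416854, stood at 18140, 26130 and 21110 CPM in cardiomyocytes and at 2504, 2872 and 1731 CPM in nonmyocytes (3.20 ± 0.47, edgeR adjusted p = 0.00122). miR-181b-5p, with the same seed and from the same member, stood at 3875, 2159 and 1890 CPM against 1799, 2510 and 1351 CPM and was not called (0.48 ± 0.47). miR-322-5p from n416084 and n416085 on chromosome X stood at 113, 246 and 936 CPM against 62.2, 16.3 and 74.7 CPM and was called higher (3.13 ± 0.98, adjusted p = 0.0310). Its seed partners miR-15a-5p and miR-16-5p, from n280081 and n295978, were not called, at 1.43 ± 0.85 and 0.65 ± 0.80. Without cardiomyocyte library 1, miR-15a-5p was called higher (1.94, edgeR adjusted p = 0.0271). miR-322-3p (1.64 ± 0.53) and miR-9-5p from n412238 (2.18 ± 0.66) were called higher. The call for miR-181a-5p held when any one small RNA library was left out, with log2 fold changes from 3.08 to 3.85, and under the other alternatives run (1.57 with library totals). The other 3 higher calls did not hold in this way. miR-322-5p missed the threshold without cardiomyocyte library 2 (3.43, adjusted p = 0.0610), cardiomyocyte library 3 (1.99, adjusted p = 0.0901) or nonmyocyte library 2 (2.66, adjusted p = 0.120). miR-322-3p was at 1.43 to 1.70 without the same libraries (adjusted p from 0.0732 to 0.159). miR-9-5p missed it without cardiomyocyte library 2 (2.29), nonmyocyte library 1 (2.31) or nonmyocyte library 2 (1.76). In counts, 1 arm was called higher without cardiomyocyte library 2 or without nonmyocyte library 2, 2 without cardiomyocyte library 3, 6 without nonmyocyte library 3 and 7 without cardiomyocyte library 1. One lower arm, AC091333.2-3p in n287611, n289228 and n291649, stood at 0, 0 and 0.309 CPM against 56.7, 70.9 and 47.5 CPM (edgeR adjusted p = 0.000541).

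n270230, on chromosome 10 (122422132 to 122422887, minus strand) and 9331 bases from Mon2, was the one member with a precursor that was tested in both kinds of libraries. It stood at 0, 0.259 and 0.727 CPM in cardiomyocytes and 1.34, 3.19 and 1.94 CPM in nonmyocytes (-2.41 ± 0.79, edgeR adjusted p = 0.0168). let-7i-5p, whose precursor it holds, stood at 6757, 2283 and 4185 CPM against 15520, 15590 and 12640 CPM and was lower as well (-1.73 ± 0.51, adjusted p = 0.0254). The other tested arm of this precursor, let-7i-3p, leaned the other way, at 22.4 ± 22.3 CPM against 8.45 ± 3.82 CPM. It was not called (1.45 ± 0.94, edgeR adjusted p = 0.235), but without cardiomyocyte library 1 it was called higher (1.865, adjusted p = 0.0330). Leaving out any one small RNA library other than cardiomyocyte library 1 ended this call for let-7i-5p, with adjusted p from 0.0563 to 0.271. let-7d-5p, with the same seed and from n288745, was not called (0.79 ± 0.39). miR-133b-3p, a muscle microRNA from n293582, stood at 173, 406 and 738 CPM against 0.987, 0 and 74.7 CPM and was not called (4.65 ± 1.87, adjusted p = 0.0721). It was called by DESeq2 (4.23, adjusted p = 0.00986) and by edgeR without the filter on low counts (4.77, adjusted p = 0.0013). Without nonmyocyte library 3 it was also called, with a fitted value of 9.51 (adjusted p = 6.53e-05) that rests on few nonmyocyte counts. n293582 itself had no polyA count, and 66.14% of its exon bases are shared.

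**Figure D5:**
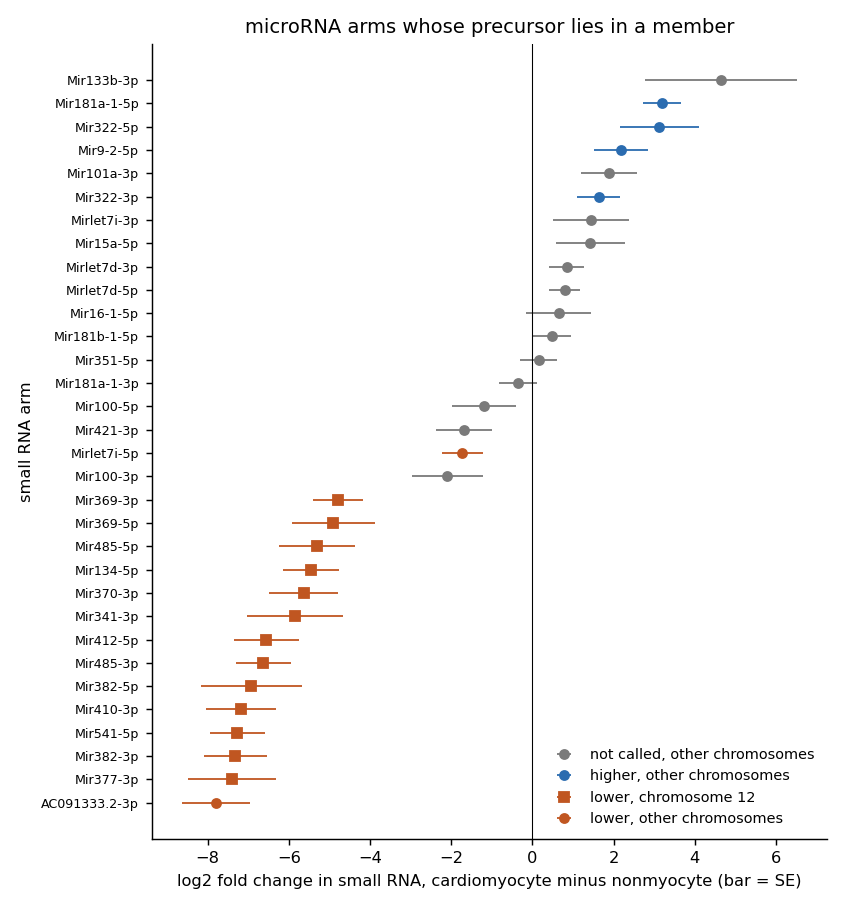
Log2 fold change in small RNA (cardiomyocyte minus nonmyocyte, bars are the SE) of the 32 tested arms whose precursor lies in a member, named by gene symbol and arm, with squares for chromosome 12 and circles for other chromosomes. The 13 arms of chromosome 12 lie between -7.40 and -4.79, and the 4 arms called higher, in blue, lie between 1.64 and 3.20.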

How the data were processed

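Polyadenylated RNA was sequenced in 6 single-end libraries that do not keep strand, so antisense reads cannot be told apart, and small RNA in 6 others. The authors deposited whole-number counts per gene and per microRNA arm and an mm9 annotation; the submitters' processing notes list TopHat 1.3.0, Bowtie, HTSeq, DESeq and edgeR, with no roles given. Members were found from gene spans in that annotation. edgeR 4.0.16 (R 4.3.3) was fitted to each whole table: filterByExpr with a minimum count of 10, TMM scaling, robust quasi-likelihood test, two-sided, Benjamini-Hochberg adjustment over all genes or arms, called at adjusted p under 0.05. The fit was tested on simulated data. CPM use TMM-scaled totals, the SE is the log2 fold change over the root of F, and a floor is 3 counts. Alternatives used DESeq2 1.42.0 and limma 3.58.1.

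Named are, among called members whose groups do not overlap, the 8 with the highest mean CPM and the 8 with the largest fold change at 1 CPM or more per direction, the 5 most abundant not called, members holding a tested precursor, and members in named Ensembl noncoding genes. Members and lists were chosen with earlier results of these data known. No mm9 sequence was used here.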

Additional observations from a re-analysis of the deposited data

How the results depend on the processing

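Under scaling by DESeq2 size factors, upper quartiles or library totals, with DESeq2 or limma voom as the test, with a fold change of 2 as the null and without mitochondrial genes, the count of higher members was 74 to 105 and of lower members 68 to 114, each within 1.5 times of 99 and 85. Without the filter on low counts, 209 members were called higher and 125 lower, with no background share given for that setting. A stricter gap left fewer members: over 20000 bases, 56 were higher and 48 lower, and over 50000 bases, 31 and 24. Leaving out each library in turn gave 91 to 124 higher and 80 to 119 lower members. Leaving out the most abundant member, an alternative chosen after seeing the data, gave 98 and 85. Deviations of same-numbered polyA libraries had r of 0.162, 0.0504 and 0.1, and those of differently numbered ones ran from -0.16 to 0.0694. In small RNA, r was 0.0437, -0.0988 and 0.245 for the same numbers and ran from -0.407 to 0.372 for different ones. The labels do not tie a number to a heart, so the numbers were not used to pair in the main fit. With the numbers as a replicate block, 95 members were higher and 84 lower, and 5 and 15 arms. The block called n295130 (0.478, edgeR adjusted p = 0.0189), miR-101a-3p (1.71, adjusted p = 0.0337) and miR-133b-3p (6.32, adjusted p = 0.00671) higher and ended the call for miR-322-3p (1.54, adjusted p = 0.0952). Counts of higher arms ran from 1 to 7 and of lower arms from 13 to 15 when 1 library was left out, and with library totals 1 arm was higher; then miR-322-3p was at -0.014 and miR-351-5p at -1.46, with the sign turned. The cause of these changes was not tested. Each group holds 3 libraries, and the shallowest small RNA library has 83170 counts, which limits what can be called.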
